A study of Equus caballus with 4 samples.

Results

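The myosin heavy chain genes on the horse array are described here, with the embryonic, neonatal, adult fast and slow or cardiac sarcomeric isoforms set beside the non-muscle isoforms. The members were the non-control probes whose gene name in the files was *MYH1*, *MYH2*, *MYH3*, *MYH4*, *MYH6*, *MYH7*, *MYH7B*, *MYH8*, *MYH9* or *MYH10*. Of these 10 genes, 8 had probes by gene name, 18 probes of the 43603 on the array, against 13829 genes with a symbol in all. *MYH6* and *MYH7B* had none by gene name and were found through the probe descriptions. *MYH9* and *MYH10* encode non-muscle myosins, so the name sarcomeric does not cover these 2 genes.

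A myosin heavy chain carries the motor head that splits ATP and pulls on actin, and a long coiled tail that packs into the thick filament of the sarcomere. Skeletal muscle makes several heavy chains in turn, with the embryonic chain (*MYH3*) and the neonatal chain (*MYH8*) in developing and regenerating fibres, and the fast chains (*MYH1*, *MYH2*, *MYH4*) or the slow chain (*MYH7*) in adult fibres. Satellite cells that differentiate into myotubes in culture are known for making the embryonic chain first.

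Satellite cells from the semitendinosus muscle of young colts were differentiated in medium with a low share of horse serum, and HMB (*β*-hydroxy-*β*-methylbutyrate, a metabolite of leucine) was added after day 2 of differentiation for 24 h. The labels give 50 µg of HMB and the methods section gives the same number in µM, and control cells stayed in differentiation medium without HMB. The titles, taken here for groups and array numbers, name HMB, whereas the description of every array calls the treated cells GO-treated, a term it does not explain, and ends in the same replicate number, though it opens with the count of replicates that the titles give. Cells of both groups were taken on day 3 and compared on 4 dual-colour arrays of 1 slide (*n* 4), with Cy5 always on the HMB-treated side and Cy3 on the control side. The colt behind each array is not named, and a bias of a probe towards a dye cannot be told apart from an effect of HMB, as the dyes were never exchanged.

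A value is the log2 ratio of HMB-treated over control cells within 1 array, so a negative value stands for less mRNA with HMB, and the processed signal is the brightness of a channel after background subtraction and dye normalisation by lowess, so that signals and ratios carry the same normalisation. A probe entered the limma test if its control channel, or its HMB channel, was well above background on each of the 4 arrays, and a call is an adjusted P of at most 0.05 over all 27384 tested probes. Of the 18 probes 8 were tested, from 6 genes (*MYH2*, *MYH3*, *MYH7*, *MYH8*, *MYH9*, *MYH10*), and 10 were too dim. The adjusted P rests on the spread of a probe between these 4 arrays, combined with a variance that limma shares between all tested probes. It covers no other source of error, and with 4 arrays the spread of a single probe is known only roughly.

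Of the 4 sarcomeric genes tested by gene name, 3 had both channels well above background on every array, and these fell in HMB-treated cells. The falls were 2.16-fold for the embryonic *MYH3*, 2.21-fold for the slow *MYH7* and 3.81-fold for the neonatal *MYH8*. The fast *MYH2*, tested through its control channel alone, was also lower. The size of this fall is left uncertain, as the HMB signal was well above background on 2 of 4 arrays. Of the non-muscle genes, *MYH9* and the *MYH10* probe found by gene name did not pass the test, while a second *MYH10* probe, found by its description and brighter, was lower (-0.42) in a call lost without array 2 (adjusted P 0.0678). In counts, 4 of the 6 tested genes were lower and 0 higher, where 11.4% of the 9528 tested genes with a symbol were lower and 11.4% higher (22.8% changed). By probe, 6 of 8 were lower, against 11.6% lower and 11.2% higher among all tested probes. With both channels required above background, which drops *MYH2*, 3 genes were called and 5 of 7 probes were lower. In that setting 22.1% of 26097 probes changed. The median log2 ratio over all tested genes was 0.02. Fewer cells that make these chains and less mRNA per cell cannot be told apart in such bulk samples. Without lowess 3 genes were called: *MYH3* lost its call (-0.37, adjusted P 0.0522), and the mean of *MYH7* was -0.54. The call of *MYH3* was also lost without the filter on dim probes (adjusted P 0.0683). The calls of the 4 genes hold with limma without any 1 of the arrays. The same test of each probe alone, without the variance that limma shares between probes, called 0 of the 8 probes after adjustment, with 6 probes and 4 genes at an unadjusted P under 0.05. Over all 27384 probes that test called 768 (2.80%), with 8435 (30.8%) at an unadjusted P under 0.05, so 0 of 8 called is near the share of all probes.

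The embryonic chain gene *MYH3* was measured by 1 probe on transcript ENSECAT00000027155, printed because the result for the main chain of early myotubes rests on it. It lies on the minus strand of EquCab1 at chr11:51904825-51904884, a span of 60 bases, so that it stays within 1 exon.

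MYH3 probe 1: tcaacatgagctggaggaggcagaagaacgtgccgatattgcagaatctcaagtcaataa

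On arrays 1 to 4 the processed signal of *MYH3* in control cells was 82936, 81650, 91965 and 99646. In HMB-treated cells it was 58138, 41079, 35287 and 33672. After lowess all HMB signals lay below all control signals, and the highest control signal was 1.22 times the lowest, but the gap between the channels depends on this normalisation, as the mean ratio shows. The log2 ratios were -0.51, -0.99, -1.38 and -1.57, lower on 4 of 4 arrays, with the smallest fall on array 1. *MYH3* thus fell, with a mean log2 ratio of -1.11 ± 0.47 (SD, *n* 4), a 95% interval of -1.52 to -0.70 and an adjusted P of 0.00846. With median centring in place of lowess, the mean was -0.37 with an adjusted P of 0.0522, and the call was also lost without the filter on dim probes (adjusted P 0.0683).

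The neonatal chain gene *MYH8*, made by fibres around birth, had 1 probe (ENSECAT00000024411, minus strand, chr11:51670611-51670670). Its control signals were 1170, 862.2, 500.6 and 406.1 on arrays 1 to 4. The signals with HMB were 370.2, 241.4, 147.5 and 73.9, each below the lowest control signal and all well above background. Control signals of *MYH8* ranged more widely between the arrays than those of *MYH3*, the highest 2.88 times the lowest. The log2 ratios were -1.66, -1.84, -1.76 and -2.46, with the largest fall on array 4. The mean was -1.93 ± 0.36 (SD, *n* 4), lower on 4 of 4 arrays, with a 95% interval of -2.26 to -1.60 and an adjusted P of 0.00113. Of all 9528 tested genes, 14 had a lower mean than *MYH8*.

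**Figure D1:**
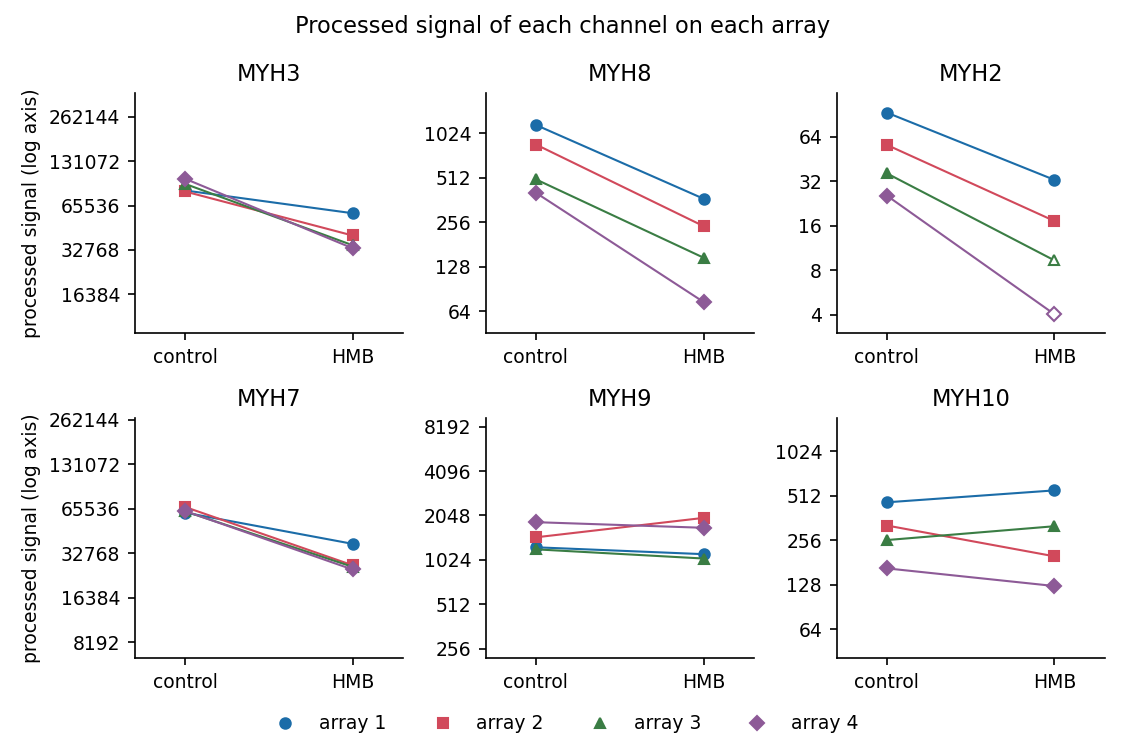
Processed signal (log axis) in the control and HMB channel of 6 myosin heavy chain genes, a line for each array, open symbols where the channel was not well above background; levels cannot be set against each other between panels. Every line of *MYH3*, *MYH8*, *MYH2* and *MYH7* falls, while those of *MYH9* and of the *MYH10* probe found by gene name run both ways. The brighter *MYH10* probe, not shown, was lower on 4 of 4 arrays.

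Among the adult fast genes only *MYH2*, the chain of fast oxidative fibres, had a probe that could be tested. This probe (NM_001081760, minus strand) spans 1749 bases of EquCab1 at chr11:51808152-51809900 and therefore crosses an exon junction. It is printed with a probe of *MYH1*, the chain of fast glycolytic fibres in the horse, at chr11:51780579-51782362 on the same strand, because both sample the same stretch of similar genes. Capitals mark the 9 bases that differ among the 55 aligned, an identity of 83.6%.

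MYH2 probe 1: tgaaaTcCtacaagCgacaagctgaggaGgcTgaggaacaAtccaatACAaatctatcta

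MYH1 probe 1: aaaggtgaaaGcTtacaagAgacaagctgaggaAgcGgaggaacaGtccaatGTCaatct

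The control signals of this *MYH2* probe were 93.3, 56.4, 36.2 and 25.6, all well above background though faint. Its signals with HMB were 32.7, 17.2, 9.30 and 4.02, and only 2 of these 4 were well above background, on arrays 1 and 2. The control array with the highest signal stood 3.65 times above the lowest, so the groups overlapped between arrays although the HMB signal was lower on each. Log2 ratios of -1.51, -1.71, -1.96 and -2.67 gave a mean of -1.96 ± 0.50 (SD, *n* 4), with a 95% interval of -2.40 to -1.53 and an adjusted P of 0.00206, lower on 4 of 4 arrays. The probe entered the test through its control channel alone, and the ratios of arrays 3 and 4 rest on HMB readings not well above background. The mean and its interval are therefore not a measured fold, and the adjusted P rests on the same ratios. The size is less sure than the direction: with normexp background correction and an offset of 50 the mean was -0.72, and the call was lost when the channels were fitted without pairing (adjusted P 0.0940). With both channels required above background the probe was not tested.

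The other 7 *MYH2* probes lie together at chr11:51807900-51808019 and overlap. In 0 of their 56 channel readings was the signal well above background, and the signals ran from 2.60 to 14.6. They give no fold and do not add to the result of the first probe. In 0 of 16 readings were the *MYH1* probes well above background, with signals from 3.16 to 11.1. *MYH4*, the gene of the fastest chain in rodent muscle, is listed for the horse as a transcribed pseudogene in the RefSeq table. In 0 of 8 readings was its single probe well above background, with signals from 3.26 to 9.57. The log2 ratios of the *MYH1* and *MYH4* probes lay below 0 on 4 of 4 arrays. With no reading well above background they give no fold. The second *MYH1* probe and the *MYH4* probe share a run of 49 bases, so a signal in either could not have been given to 1 gene.

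The slow chain gene *MYH7*, also the main chain of the adult heart ventricle, had 3 probes on NM_001081758, shifted by 1 base each on an unplaced EquCab1 sequence (plus strand, 181223623 to 181223681). They share their target and count as 1 measurement, and the brightest is given. Control signals were 61723, 67439, 63014 and 63318 on arrays 1 to 4, the highest 1.09 times the lowest. With HMB they were 37923, 27154, 26498 and 25416. The 2 ranges did not overlap, and array 1 stood apart with the smallest fall. Log2 ratios of -0.70, -1.31, -1.25 and -1.32 gave a mean of -1.15 ± 0.30 (SD, *n* 4), lower on 4 of 4 arrays, with a 95% interval of -1.43 to -0.86 and an adjusted P of 0.00280. The remaining probes had means of -1.14 and -1.08. Without lowess the mean was -0.54, nearer to 0, and the call held (adjusted P 0.00508).

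*MYH6*, the chain of the heart atrium, and *MYH7B*, a slow-type chain of minor abundance in skeletal muscle, were reached only through their descriptions. Both *MYH6* probes (ENSECAT00000022901, plus strand) lie on an unplaced sequence, at 181253304 to 181253724 and at 181253324 to 181253744. They are printed because they share 40 of 60 bases, in capitals, and yet gave different ratios.

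MYH6 probe 1: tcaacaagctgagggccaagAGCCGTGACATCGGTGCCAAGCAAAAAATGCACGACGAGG

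MYH6 probe 2: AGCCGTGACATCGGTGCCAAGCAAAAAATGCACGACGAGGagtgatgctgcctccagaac

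The first *MYH6* probe had control signals of 8946, 7892, 6600.3 and 4594 and HMB signals of 5687, 3677, 2982 and 1851. It fell on 4 of 4 arrays, with log2 ratios of -0.65, -1.10, -1.15 and -1.31, a mean of -1.05 ± 0.28 (SD, *n* 4) and an adjusted P of 0.00319. The second, with control signals between 28.8 and 34.9, had log2 ratios of -0.36, -0.74, -0.10 and -1.27 and a mean of -0.62 ± 0.51, which did not pass the test (adjusted P 0.0566). Its HMB reading on array 4 (14.4), behind the ratio of -1.27, was not well above background, and with normexp the mean was -0.19. Leaving out array 1, 2, 3 or 4, it was -0.70, -0.58, -0.79 and -0.40 with an adjusted P between 0.0480 and 0.154, and it passed without array 3 and without lowess (-0.81, adjusted P 0.0216). Both probes cross an exon junction, as each spans 421 bases, and whether mRNA of *MYH7* binds them was not tested. *MYH7B* (ENSECAT00000018068, plus strand, chr22:25855913-25856467) had control signals of 169.7, 112.0, 88.1 and 52.1, and HMB signals of 119.2, 64.3, 38.9 and 23.0, with 3 of the 4 well above background. Its log2 ratios of -0.51, -0.80, -1.18 and -1.18 gave a mean of -0.92 ± 0.33 and an adjusted P of 0.00618, lower on 4 of 4 arrays. With the channels fitted without pairing the calls of *MYH6* (adjusted P 0.0896) and *MYH7B* (0.321) were lost, and that of *MYH7B* was also lost without the filter on dim probes (0.0540). With normexp the mean of *MYH7B* was -0.45.

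**Figure D2:**
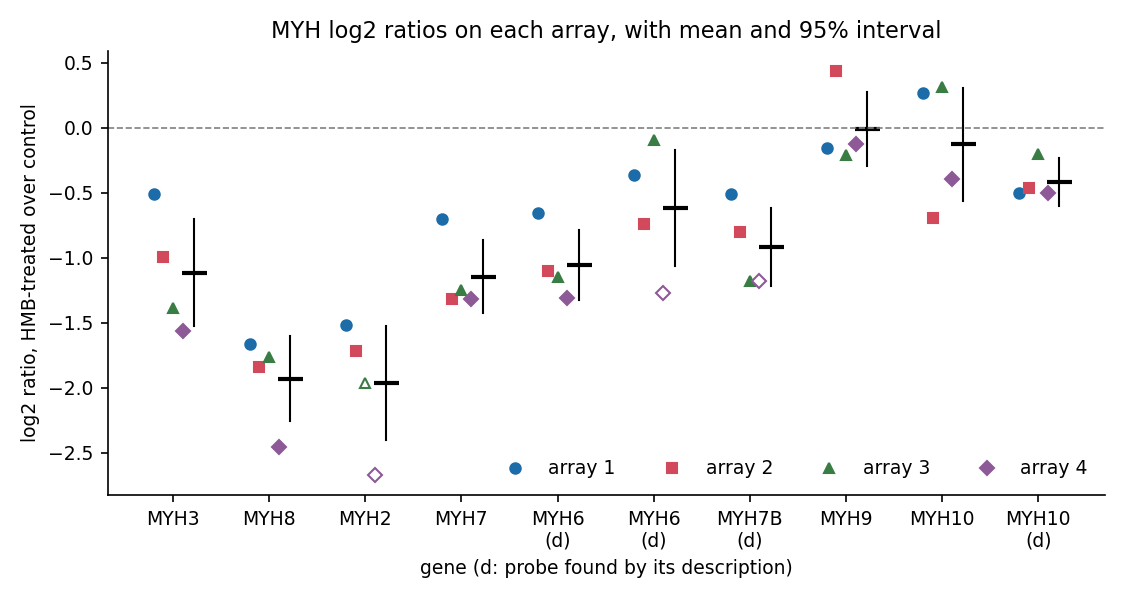
Log2 ratio of HMB-treated over control cells on each array for 10 tested probes (1 of the 3 overlapping *MYH7* probes), with the mean (bar) and 95% interval (line), and open symbols where the HMB channel was not well above background. All ratios of the sarcomeric genes lie below 0, between -0.10, of the second *MYH6* probe, and -2.67, whereas *MYH9* and the *MYH10* probe found by gene name have ratios on both sides; the ratios of the other *MYH10* probe are all negative.

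The non-muscle heavy chains form the contractile bundles of the cell cortex and stress fibres. *MYH9* (ENSECAT00000023335, minus strand, chr28:33588151-33589267, across a junction) had control signals of 1247, 1457, 1208 and 1845 and HMB signals of 1120.2, 1973, 1047 and 1691. Its log2 ratios were -0.15, 0.44, -0.21 and -0.13, with a mean of -0.01 ± 0.30, a 95% interval of -0.30 to 0.27 and an adjusted P of 0.947. The mean turned to 0.0144 without lowess and to 0.03, 0.05 and 0.03 without array 1, 3 or 4. *MYH10* (ENSECAT00000017905, minus strand, chr11:50142454-50142513) had control signals of 462.6, 322.1, 256.7 and 165.0 and HMB signals of 557.2, 199.2, 318.5 and 125.3. The ratios of 0.27, -0.69, 0.31 and -0.40 went either way, with a mean of -0.13 ± 0.50, a 95% interval of -0.56 to 0.31 and an adjusted P of 0.637. A second *MYH10* probe, found by its description (XM_001504825), fell on 4 of 4 arrays, with log2 ratios of -0.50, -0.47, -0.20 and -0.50, a mean of -0.42 ± 0.15 and an adjusted P of 0.0142. This mean lies within the interval of the first probe. The difference between the probes was not tested. The call of the second was lost without array 2 (adjusted P 0.0678), without pairing (0.289) and without the filter on dim probes (0.0532).

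Ordered by mean log2 ratio, the member genes found by gene name with both channels well above background on 4 of 4 arrays ran from *MYH8*, the lowest, to *MYH7*, *MYH3*, *MYH10* and *MYH9*. *MYH6*, found by description, would stand between *MYH3* and *MYH10*. Its first probe (-1.05) was also well above background in both channels on 4 of 4 arrays. The same held for the brighter *MYH10* probe, found by description (-0.42), which would stand between *MYH6* and the other *MYH10* probe. The steps below take the *MYH10* probe found by gene name. *MYH7* and *MYH3* differed by -0.03 ± 0.27 (SD of the difference, *n* 4), with 2 of 4 arrays on either side. The step from *MYH8* to *MYH7* was wider than the spread, at -0.78 ± 0.32, with the same sign on 4 of 4 arrays. The step from *MYH3* to *MYH10* was -0.98 ± 0.59, also on 4 of 4, and *MYH10* and *MYH9* differed by -0.12 ± 0.76. These differences were not tested, and their sizes depend on the dye normalisation. Without lowess the means were -1.92 (*MYH8*), -0.54 (*MYH7*), -0.37 (*MYH3*), -0.13 (*MYH10*) and 0.0144 (*MYH9*). There *MYH3* lay nearer to *MYH10*, *MYH8* lay farther from *MYH7*, and *MYH6* (-0.91) stood between *MYH8* and *MYH7*. *MYH2* has no sure place in this order, because 2 of its HMB readings were not well above background and normexp put its mean (-0.72) above those of *MYH8* (-1.69), *MYH7* (-1.04) and *MYH3* (-0.92).

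Developmental and adult isoforms were set against each other on every array. The mean log2 ratio of *MYH3* and *MYH8* was -1.09, -1.41, -1.57 and -2.01 on arrays 1 to 4, and that of *MYH2* and *MYH7* was -1.11, -1.51, -1.60 and -1.99. The adult means of arrays 3 and 4 hold *MYH2* ratios from HMB readings not well above background. The difference of developmental minus adult was 0.02 and 0.10 on arrays 1 and 2, where all 4 genes were measured, and 0.03 and -0.02 on arrays 3 and 4, a mean of 0.03 ± 0.05 (SD, *n* 4). Without *MYH2*, in an alternative chosen after seeing the data, it was -0.38, -0.10, -0.32 and -0.69, a mean of -0.38 ± 0.24, so that the comparison turns on this dim probe. The planned contrast also named *MYH6* and *MYH7B*, which had no probe by gene name. With their probes found by description, added after seeing the data, the difference was -0.25. It was -0.42 with normexp and -0.24 without the filter on dim probes. Within the developmental class *MYH8* lay below *MYH3* on 4 of 4 arrays, by -0.82 ± 0.32, and farther below it without lowess (-1.92 and -0.37).

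**Figure D3:**
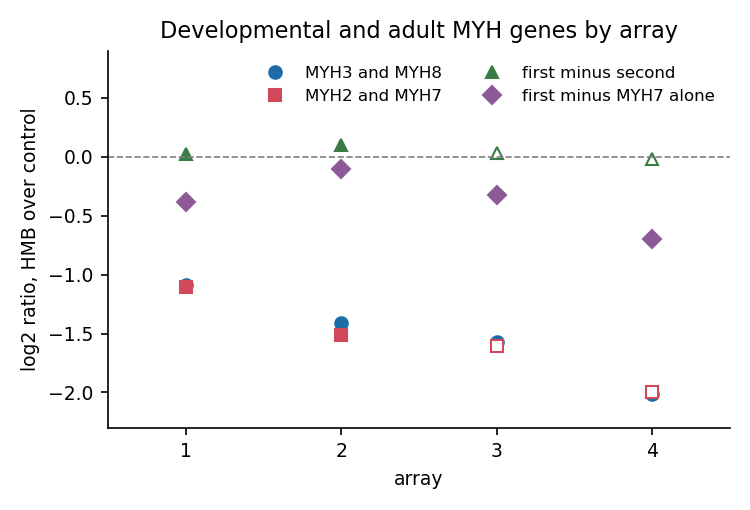
Mean log2 ratio of the developmental genes (*MYH3*, *MYH8*) and the adult genes (*MYH2*, *MYH7*), the first minus the second, and the first minus *MYH7* alone, on each of the 4 arrays, with open symbols where the HMB reading of *MYH2* was not well above background. The difference is 0.02 and 0.10 on arrays 1 and 2, and without *MYH2* it lies below 0 on every array, from -0.10 to -0.69.

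In the RefSeq table the genes stand on chromosome 11 in the order *MYH10*, *MYH13*, *MYH8*, *MYH4*, *MYH1*, *MYH2* and *MYH3*, while *MYH6* and *MYH7* are neighbours on chromosome 1. Both sites therefore hold genes that fell, and the chromosome 11 cluster also holds probes not well above background. *MYH13*, the extraocular chain, had 5 of 8 readings well above background and was not tested. Outside the members, the smooth muscle chain gene *MYH11* fell, with log2 ratios of -0.89, -0.83, -0.54 and -2.45, a mean of -1.18 ± 0.86 and an adjusted P of 0.0368, lower on 4 of 4 arrays with 3 of 4 HMB signals above background. Without array 1, 2 or 3 this call was lost (adjusted P 0.0802, 0.0701 and 0.0535), as it was without pairing (0.295) and without the filter on dim probes (0.158), and with normexp the mean was -0.45. Without array 4, where its HMB signal was not well above background, the mean was -0.76. *MYH14*, another non-muscle chain, had 1 tested probe at -0.23 ± 0.03 (adjusted P 0.0354), which turned to 0.44 without lowess and lost the call without any 1 array (adjusted P 0.0544 to 0.178), without pairing (0.187) and with normexp (-0.08, 0.280). The tested *MYH14* probe read 43566 to 62345. In 0 of 8 readings was the other *MYH14* probe well above background (3.87 to 10.2), and its log2 ratios were 0.11 to 0.46. The tested probe shares a run of at least 20 bases with 3 probes not named for *MYH14*. Whether its signal is that of *MYH14* alone was not tested. In 0 of 16 readings was *MYH15* well above background, and *MYH16* was not found by name.

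Genes were ranked by how near their 4 ratios lay to those of a member, by root mean square difference over the 4 arrays among 9523 genes. No ranking is given for *MYH2*, nor a distance for genes whose HMB signal was not well above background on all 4 arrays (*MYH2* and *DQB* near *MYH8*, *PDE2A* near *MYH7*). Nearest to *MYH8* were then *AMPD1* (0.287), the AMP deaminase of skeletal muscle, *DRA* (0.397), a chain of MHC class II molecules, and *MATN2* (0.411), a matrix protein. Nearest to *MYH7* were *HSPB2* (0.101), a small heat shock protein of muscle, *MYH6* (0.120), the frizzled receptor gene *FZD10* (0.131) and *TGFB2* (0.156), a growth factor of the TGF-*β* family. *MYH3* lay at 0.234 from *MYH7*, with 23 genes closer.

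Counts of the gene lists below stand beside 11.4% lower and 11.4% higher among all tested genes. Light chains bind the neck of each heavy chain. Of 8 sarcomeric light chain genes 6 were tested, and all 6 fell, with a median log2 ratio of -0.84. With median centring in place of lowess the list median was -0.44 and *MYLPF* turned to 0.21. They were *MYL3* (-1.03), *MYL2* (-0.90), *MYL4* (-0.90) and *MYL6B* (-0.58), made in slow, cardiac or embryonic muscle, the fast *MYL1* (-0.66), and the fast regulatory *MYLPF* (-0.79), while *MYL5* and *MYL7* were not tested. *MYL1* lost its call without array 3 (adjusted P 0.0619), and *MYL6B* without array 2 (0.0561) or 3 (0.0660). Without the filter on dim probes 2 of the 6 were called, and without lowess *MYL2* was -0.46 and *MYL4* -0.34. Among 7 tested genes of non-muscle light chains and of the enzymes that phosphorylate or dephosphorylate them, 3 fell: the kinase *MYLK* (-0.96) and the phosphatase subunits *PPP1R12B* (-0.62, HMB signal above background on 2 of 4 arrays) and *PPP1R12A* (-0.42). The list median of -0.42 depends on array 4, as it was -0.16 without it, and it was -0.26 without lowess and -0.27 with normexp, where the light chain gene *MYL6* (0.01) passed as higher (0.99 and 0.34). Without array 2 or 3 *PPP1R12A* lost its call (adjusted P 0.0852 and 0.101), *PPP1R12B* lost it with normexp (-0.16, adjusted P 0.0653), and without the filter 1 of the 3 was called.

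Thick filament and M-band proteins hold the heavy chains in register. The list of these genes also holds Z-disc protein genes. In it 8 of 11 tested genes fell and 0 rose, with a median of -0.59. The M-band protein gene *MYOM2* had the lowest mean (-1.27 ± 0.24, adjusted P 0.00140, lower on 4 of 4 arrays), followed by *MYOZ2* (-0.83), a Z-disc protein, and the fast myosin-binding protein gene *MYBPC2* (-0.78). *MYBPH* (-0.40, adjusted P 0.0218 without array 1), the titin gene *TTN* (-0.31) and *MYOZ3* (0.31) did not pass the test. The list for myosin folding and turnover also holds a gene of excitation-contraction coupling. Of its 12 tested genes 8 fell, with a median of -0.37. Without lowess 6 were lower and 2 higher, and the chaperone gene *HSP90AB1* (-0.37) turned to 0.42. *HSP90AB1* also lost its call with normexp and without array 2 (adjusted P 0.0812) or 3 (0.0756). The lowest were *TRIM55* (-0.92) and *TRIM63* (-0.87), ubiquitin ligases that bind the sarcomere, and *SMYD1* (-0.87), which acts with chaperones on new myosin. *FBXO32* (0.02), *SMYD2* (0.11) and *NACA* (0.11) did not pass, though *NACA* did without lowess (0.86) and with normexp (0.30). With normexp *MYBPC2* was -0.50 and *SMYD1* -0.41. Without array 2 or without array 3 the count for myosin folding was 3, and without the filter on dim probes or without pairing it was 4. *SMYD1*, with 3 of 4 HMB signals above background, lost its call without array 1, 2 or 3 (adjusted P 0.0698, 0.0635 and 0.0811) and without pairing (0.0717). Without array 4, where its log2 ratio was -1.83, its mean was -0.56.

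Of 25 tested regulators of the heavy chain genes 13 fell (52.0%) and 4 rose (16.0%), with a median of -0.28. The share that rose is near the 11.4% of all tested genes that were higher, and without array 3 the counts were 2 lower and 1 higher. The myogenic factor *MYF5* (-1.01), the TEAD cofactor *VGLL2* (-0.84) and *PROX1* (-0.68), a factor of slow fibres, had the lowest means. The HMB signal of *PROX1* was well above background on 2 of 4 arrays, and with normexp its mean was -0.20. Those that rose were *NFATC4* (0.45) and *NFATC2* (0.40), which answer to calcineurin, *TBX15* (0.38), a factor of fast fibres, and *PURB* (0.31), a repressor of cardiac myosin genes. The 17 calls of this list were 8 without array 2, 3 without array 3, 8 without pairing and 5 without the filter on dim probes. *VGLL2* (adjusted P 0.0739), *PROX1* (0.103), *NFATC2* (0.0526) and *NFATC4* (0.0520) lost theirs without array 3, and *PROX1* also without array 1 (0.0621). *PURB* lost its call without any 1 array (adjusted P 0.0612 to 0.124), without pairing (0.215) and without the filter on dim probes (0.109).

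Among partners that mark fast or slow fibres, those past the threshold were lower. Of 7 tested fast genes 5 were lower, with a median of -0.87: the troponins *TNNC2* (-1.15), *TNNI2* (-0.88) and *TNNT3* (-0.87), the actinin *ACTN3* (-1.01) and the calcium store protein *CASQ1* (-0.56), while the calcium pump *ATP2A1* (-0.61) and the tropomyosin *TPM1* (-0.48) did not pass, *ATP2A1* doing so without array 1 (-0.92). Of 8 slow genes 6 were lower, with a median of -0.86, namely the troponins *TNNC1* (-0.98), *TNNT1* (-0.87) and *TNNI1* (-0.84), *CASQ2* (-0.97) and the stretch-linked *CSRP3* (-0.97) and *ANKRD2* (-0.67). The calcium pump *ATP2A2* (0.07) and the tropomyosin *TPM3* (0.25) of the slow list did not pass. *TPM3* was higher on 4 of 4 arrays and did pass without lowess (0.67), with normexp (0.27) and with an intensity trend. Of 6 developmental or cardiac genes 6 fell, with a median of -0.73 (-0.43 without lowess), namely skeletal actin *ACTA1* (-0.98), the adhesion molecule *NCAM1* (-0.90), the acetylcholine receptor subunits *CHRNA1* (-0.75) and *CHRNG* (-0.53), cardiac troponin *TNNT2* (-0.71) and cardiac actin *ACTC1* (-0.38), which turned to 0.69 without lowess and to 0.00724 with normexp. Without the filter on dim probes the fast count was 2, the slow count 0 and the developmental or cardiac count 2, with *CASQ1* among the lost calls (adjusted P 0.0949). Without pairing the counts were 4, 6 and 4, and *CASQ1* (adjusted P 0.264), *ACTC1* (0.118) and *CHRNG* (0.0803) lost their calls. The fast count was 3 without array 2 or 3, where *CASQ1* and *TNNT3* lost their calls (adjusted P 0.0602 to 0.0806), and the developmental or cardiac count was 3 without array 3, where *ACTC1* (0.160), *CHRNG* (0.0832) and *TNNT2* (0.0636) lost theirs. *ACTC1* and *CHRNG* also lost the call without array 2 or 4, *TNNI1* without array 2, 3 or 4 (adjusted P 0.0567 to 0.0827) and *ANKRD2* without array 3 (0.0605). Without lowess *ACTA1* was -0.38 and *TNNC1* -0.50.

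**Figure D4:**
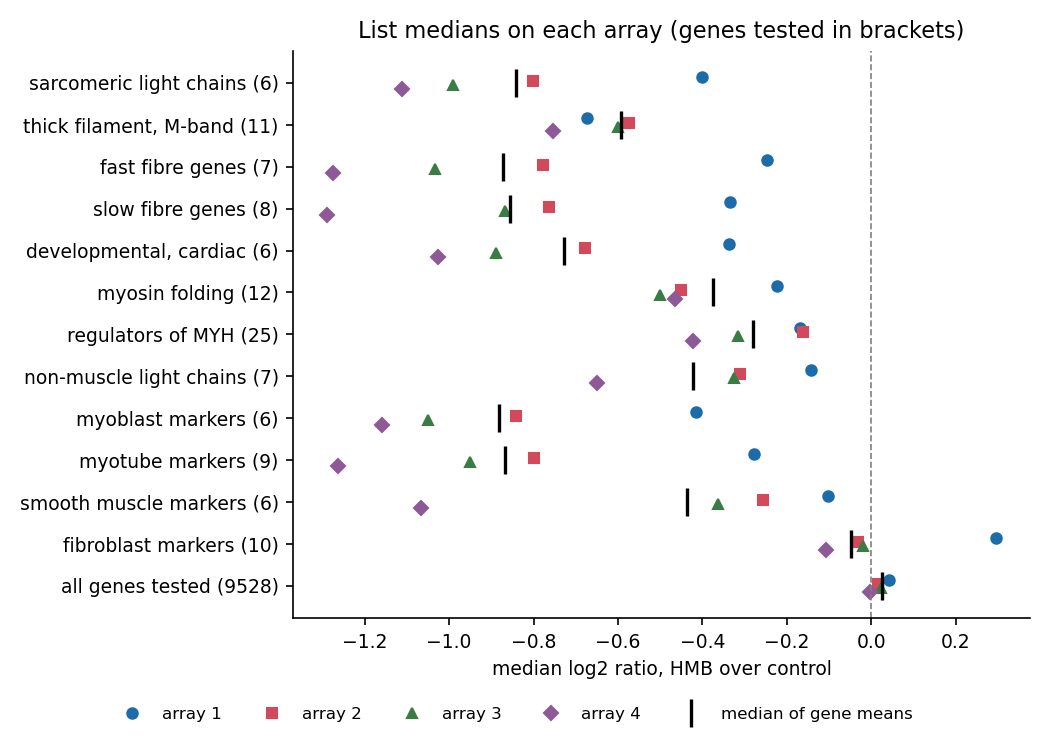
Median log2 ratio of each gene list on each array, with the median of the gene means (bar) and the number of genes tested in brackets. The sarcomere lists lie to the left of all genes tested, with medians between -0.59 and -0.87 (-0.43 to -0.67 without lowess), array 1 being nearest to 0 in all of them but the thick filament list, while the fibroblast markers lie at -0.05, and at 0.39 without lowess.

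Over all these lists 55 of 82 tested genes fell and 4 rose, 59 changed, with a median of -0.55 beside 0.02 over all tested genes. Of all tested genes 11.4% were lower, 11.4% higher and 22.8% changed. Without array 3 the count of changed list genes was 28, where 9.97% of all probes changed, and without array 2 it was 37 (9.36%). It was 39 without pairing (8.13%), 22 without the filter on dim probes (8.46%) and 4 with each probe tested alone (2.80%). The number that rose was 9 without lowess and 7 with normexp. Markers of cell types moved too. All 6 tested myoblast markers fell (median -0.88), namely *MYF5*, desmin (*DES*, -0.98), *NCAM1*, the laminin receptor *ITGA7* (-0.86), M-cadherin (*CDH15*, -0.77) and the myogenic factor *MYOD1* (-0.46), while *PAX7*, *PAX3* and *CHODL* were below the filter in both groups. The 9 tested myotube markers were well above background in either group on every array, and 8 of them fell, with a median of -0.87 and medians of -0.28, -0.80, -0.95 and -1.26 on arrays 1 to 4. *CACNA1S* (-0.98) and *RYR1* (-0.95), the channels that couple excitation to contraction, *ACTN2* (-0.76) and myogenin (*MYOG*, -0.42), a factor of muscle differentiation, were among them, and *MYMK*, the fusion factor, was at -0.27 and did not pass, though it did without array 1 (-0.38). The myotube count was 5 without array 2 or without array 3 and 0 without the filter on dim probes, where 2 myoblast markers were called. *MYOD1* lost its call without array 2, 3 or 4 (adjusted P 0.0604 to 0.0902). *MYOG* (adjusted P 0.0222) lost its call without array 2 (0.0625) or 3 (0.0901), without pairing (0.0617) and without the filter on dim probes (0.0852). The part of these markers in the fall of the heavy chains was not tested.

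Of 10 tested fibroblast markers 0 fell and 1 rose, *PDGFRA*, a growth factor receptor, with log2 ratios between 1.09 and 2.19, a mean of 1.53 ± 0.47 and an adjusted P of 0.00358. The share that rose (10.0%) is near the 11.4% of all tested genes that were higher. The list median was -0.05, and on arrays 1 to 4 it was 0.30, -0.03, -0.02 and -0.11. These counts depend on the dye normalisation. Without lowess 7 of the 10 rose and the list median was 0.39, the others being the collagen genes *COL1A2* (0.86) and *COL3A1* (0.75), the matrix genes *DCN* (0.92), *FBN1* (0.46), *DPT* (0.32) and *LUM* (0.30), of which *COL1A2* (-0.20), *COL3A1* (-0.21) and *FBN1* (-0.14) had been below 0. With normexp the median was 0.13 and 2 rose, *PDGFRA* and *DCN* (0.36). The lowest mean of the list, that of the collagen gene *COL1A1* (-0.54), passed as lower without array 1 (-0.82) and was 0.11 without lowess. *DPT* (0.30) and *TCF7L2* (0.38) passed as higher without array 4, and *THY1* (-0.10) passed in no alternative. With normexp *PDGFRA* was 0.89. Of 6 smooth muscle markers 1 fell, *MYH11*, a share (16.7%) near the 11.4% of all tested genes that were lower. The list median of -0.44 depends on array 4, with medians of -0.10, -0.26, -0.36 and -1.07 on arrays 1 to 4 and of -0.24 without array 4, where smooth muscle actin *ACTA2* (-0.53) also passed as lower (-0.27). Without array 1, 2 or 3 the smooth muscle count was 0. Of 4 cardiomyocyte markers the troponin *TNNI3* (-0.77) and the calcium channel *RYR2* (-0.73) fell. The other 2 did not pass and lay above 0, up to 0.17, and the list median was -0.28. Of 3 leukocyte markers the phosphatase *PTPRC* (0.28) rose. The other 2 did not pass, the lowest at -0.29, and the list median was 0.02. Without array 1 *RYR2* lost its call (adjusted P 0.0737), as it did without pairing (0.109) and without the filter on dim probes (0.113), and with normexp it was -0.45. *PTPRC* lost its call without any 1 array (0.0551 to 0.115), without pairing (0.237) and without the filter on dim probes (0.0776). None of the 5 adipocyte and 5 endothelial markers was bright enough to be tested.

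**Figure D5:**
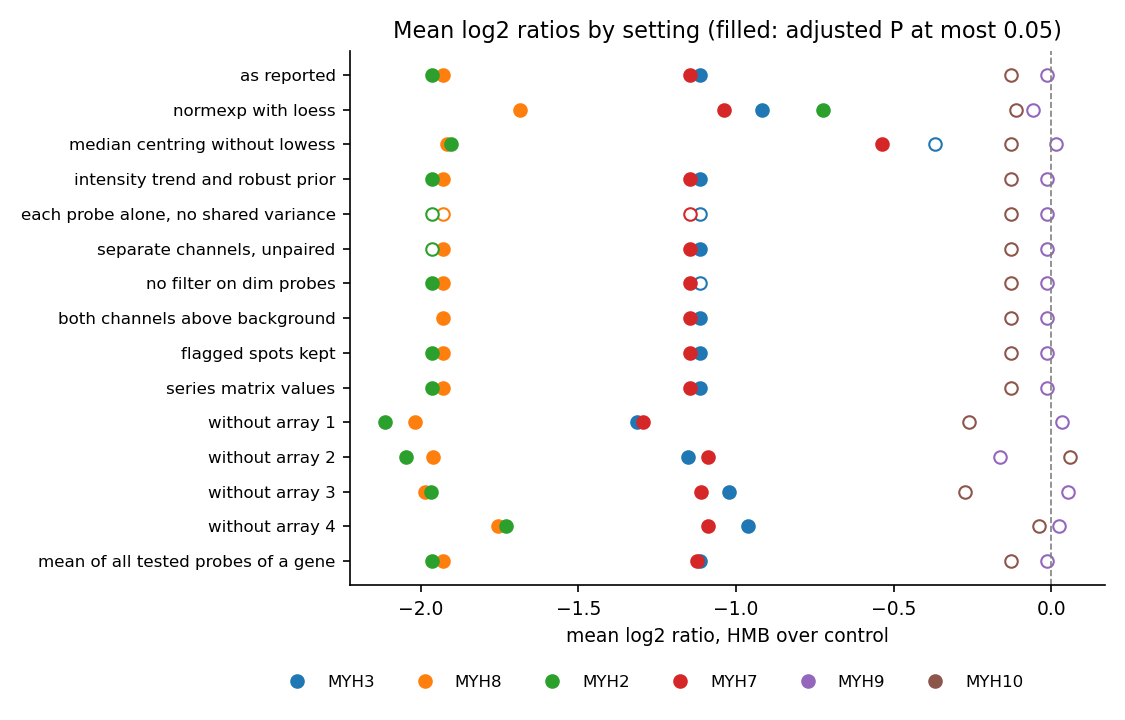
Mean log2 ratio of the 6 tested member genes under each way of processing, filled where the adjusted P was at most 0.05. *MYH8* and *MYH7* lie below 0 and are filled everywhere but where each probe was tested alone, *MYH3* moves to -0.37 and loses its call without lowess, *MYH2* moves to -0.72 with normexp, and *MYH9* and *MYH10* are not filled, *MYH10* between -0.27 and 0.06.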

How the data were processed

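Messenger RNA of HMB-treated and control ESC was compared on 4 dual-colour arrays. Deposited were Feature Extraction files (version 10.10.1.1 in the files, another in the methods section), holding intensity values per channel, log10 ratios of Cy5 over Cy3 after linear and lowess normalisation, and marks of 0 or 1 for spots above background, outlying or saturated. Ratios were multiplied by 3.32. Control and outlying spots were left out (11 to 32 outlying spots an array, none saturated) and spots of a probe averaged. Symbols came from the files for 24962 probes, from the RefSeq table of a newer assembly for 893, from descriptions for 145 and 86; 17517 had none. The filter asked for 1 channel well above background on all 4 arrays and for at least 3 values, and left out 16219 probes.

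The test was limma's moderated test of an intercept (limma 3.58.1, R 4.3.3, two-sided), with P adjusted over every tested probe after Benjamini and Hochberg and a threshold of 0.05, and was checked on simulated data. A gene is represented by the brightest of its tested probes, a member by one matched by gene name. The R package data.table (1.17.8), Python 3.11.15, numpy 2.4.6, pandas 2.3.3 and matplotlib 3.10.9 were used. Named genes are the members and, of each list, those past the threshold or, above 6, the 3 largest and 3 smallest means. *PURB*, *HSP90AB1*, *MYL6*, *ACTA2*, *ATP2A1*, *ATP2A2*, *TPM1*, *TPM3* and the fibroblast markers other than *PDGFRA* were named after their values were seen. The members and lists were chosen with earlier results of these data known.

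The alternatives were normexp (offset 50) with loess, median centring without lowess, an intensity trend, each probe tested alone (the intercept without limma's shared variance; the methods section names GeneSpring's default and no test), separate channels without pairing, dim probes kept, a filter on both channels, outlying spots kept, values of the series' summary (largest difference 0), probe means per gene, and leaving out an array.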

Additional observations from a re-analysis of the deposited data

Results flagged for a closer look

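In a group of 4 arrays, a value was listed when its gap to the nearest other value was large against the whole range (Dixon's test at 95%). This held for 8 of 37 groups of 4 values, and chance gives about 1 in 20. Array 1 stood apart in *MYH7*, where the HMB signals of the 3 overlapping probes were 38288, 37923 and 37461, above those of the other arrays, and the log2 ratios of the first and second probe were -0.68 and -0.70. These 5 values come from 1 stretch of mRNA on 1 array and are not separate signs. The *MYH9* ratio on array 2 was 0.44, the other arrays lying below 0. The control signal of the second *MYH6* probe was 28.8 on array 3, and the ratio of the *MYH10* probe found by description was -0.20 on that array.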

How the results depend on the processing

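Not every alternative could shift a ratio. The values of the series' summary equal the ratios used here, and probe means per gene repeat them for *MYH8*, *MYH3* and *MYH2*, with 1 tested probe each. With these counted, the calls of *MYH8* and *MYH7* were kept in 13 of 14 alternatives, that of *MYH3* in 11 of 14 and that of *MYH2* in 11 of 13. Over these the mean ran from -2.02 to -1.69 for *MYH8*, -1.29 to -0.54 for *MYH7*, -1.31 to -0.37 for *MYH3* and -2.11 to -0.72 for *MYH2*, and the adjusted P of limma reached at most 0.0342 without an array (*MYH3*). All 4 calls were lost when each probe was tested alone, with adjusted P of 0.0535 (*MYH8*), 0.0671 (*MYH2*), 0.0676 (*MYH7*) and 0.105 (*MYH3*); this test has no shared variance estimate.

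The 6257 changed probes were 768 with each probe alone, 2226 with separate channels and no replicate block (no array pairing), 3690 without the filter and 2564 to 4981 without an array (2564 without array 2, 2729 without array 3). The share of higher probes was 49.1%, against 59.2% without lowess, 29.9% without pairing and 36.2% without array 2. With each probe alone 0 member probes and 0 member genes were called; without an array 6 probes and 4 genes were called each time. Of the list genes (59) 4 were called with each probe alone (2.80% of all probes), 39 without pairing (8.13%), 22 without the filter (8.46%) and 28 to 57 without an array (9.36% to 18.2%).

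Developmental minus adult (0.03) was -0.42 with normexp, whose offset shrinks dim ratios, -0.24 without the filter, which lets in *MYH1* and *MYH4* at background, and -0.38 with both channels above background, which drops *MYH2*. With the description probes of *MYH6* and *MYH7B*, genes that the planned contrast named, it was -0.25. Without *MYH2* it was -0.38, and both settings were chosen after seeing the data. The reported difference was 0.01 to 0.05 without an array.

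The mean of *MYH9* turned to 0.0144 without lowess (range without an array -0.163 to 0.0520) and that of *MYH10* to 0.0608 without array 2 (range -0.274 to 0.0608). Other named genes turned too. Without lowess *ACTC1* was 0.69, *MYH14* 0.44, *MYLPF* 0.21, *HSP90AB1* 0.42, *COL1A1* 0.11, *COL1A2* 0.86, *COL3A1* 0.75 and *FBN1* 0.46. With normexp *ACTC1* was 0.00724, *COL1A2* 0.17, *COL3A1* 0.10, *FBXO32* -0.0146 and *LUM* -0.0398. Without an array *ATP2A2* ran from -0.00677 to 0.111, *FBXO32* from -0.0280 to 0.0678, *LUM* from -0.0162 to 0.0309, *MYL6* from -0.0262 to 0.0673 and *MYOZ3* from -0.00292 to 0.757. The cause was not tested. Over 80 named list genes and probes outside the 6 tested member genes, 829 of 1034 values kept direction and side of the threshold, 164 lost the call, 20 gained it and these 21 turned, *FBXO32* and *LUM* without array 2 and without array 3 and *MYL6* without array 1 and without array 2. Among the values kept are those of the series' summary, which equal the ratios used here. The floor of the HMB channel ran from 14.04 to 17.7 between arrays. The HMB signal of *MYH2* lay above the floor of its array on arrays 1 and 2 and below it on arrays 3 and 4. The size of its fall is therefore uncertain.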
